A study of Mus musculus with 24 samples.

Results

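The nuclear genes of the mitochondrial respiratory chain were examined in lung and skin of irradiated mice. The set was defined by name, as every gene whose single symbol in the platform annotation begins with Nduf, Sdh, Uqcr, Cox followed by a digit or Atp5, or is Cycs or Cyc1. The rule was chosen with earlier results of these data known. It gave 42 genes from 44 probes among 8750 features. Complex I contributed 12 genes, complex II 2, complex III 2, cytochrome c 1, complex IV 11 and complex V 8, and 6 genes encode assembly factors. Cyc1 was not among the genes found by the rule, and subunits encoded in mitochondrial DNA lie outside it. Another 3 probes, 1 for Sdha and 2 for Cox16, also carry the symbol of a second gene and were left out. Cox7c and Cox20 had 2 probes each, which were averaged.

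Each of 24 arrays held RNA pooled from 3 female mice aged 12 to 13 weeks, of the inbred strain A/J, C57BL/6J or C3H/HeMs. The lung groups were mice without irradiation and mice killed 1 h, 12 h or 72 h after 10 Gy of gamma rays to the thorax. The skin groups were full-thickness skin of mice without irradiation and of mice killed at the same times after 30 Gy to the hind leg. The 8 groups thus had 3 arrays each, 1 per strain. Group and strain are both in the main fits, so their error is the variation between pools that these leave. The spread between single mice was not measured. Every sample was compared with 1 reference, a mixture of commercial RNA from 10 organs. All values are log2 ratios of sample to reference, centred on the median of each array, and sets of 3 values are in the order A/J, C57BL/6J, C3H/HeMs.

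The respiratory chain passes electrons from NADH (through complex I) and from succinate (through complex II) to ubiquinone, then through complex III and cytochrome c to complex IV, which reduces oxygen. Complexes I, III and IV pump protons across the inner mitochondrial membrane, and complex V, the ATP synthase, uses the gradient to make ATP. Heart, skeletal muscle and brown fat are rich in these complexes, and several subunits of complex IV have a broad isoform and one typical of striated muscle.

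Lung RNA carried the dye Cy3 and skin RNA Cy5, so dye and tissue cannot be told apart in any comparison of both. Before lung values were turned in sign, the correlation of lung with skin arrays over all probes was between -0.516 and -0.123. After turning, Sftpc, the surfactant protein of alveolar type 2 cells, was at 2.44, 2.41 and 0.98 in control lung and -6.54, -6.53 and -6.51 in control skin. These skin values of Sftpc are the lower limit of the deposited ratio after centring, so they are bounds and not measured levels. Krt10, a keratin of the upper epidermis, was at -2.17, -2.81 and -2.04 in control lung and 5.73, 3.94 and 4.49 in control skin. In lung, the 4 arrays of A/J and C3H/HeMs at 12 h and 72 h stood apart from the other 8, with 115 to 674 probes at exactly 0 against 1 to 23. Of the member probes, 1 was at exactly 0 in 1 of these arrays and none reached the limit of the deposited ratio. With 3 arrays per group, precision is limited by their number.

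In lung most respiratory chain genes lay well below the organ mixture, and in skin most lay only slightly below it. The median of the 42 genes was -1.37, -1.46 and -1.62 in control lung, where 40, 39 and 40 of them were below the reference. In control skin the median was -0.44, -0.24 and -0.23, and 33, 32 and 31 genes were below it. Complex by complex the control lung medians of complex V were -1.56, -1.73 and -1.69 and those of complex I -1.08, -1.03 and -1.14. The corresponding skin medians were -0.41, -0.31 and -0.26 and -0.43, -0.17 and -0.03. Ratios of different probes to the reference do not give the relative abundance of different genes, so no order of levels between genes is drawn.

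**Figure D1:**
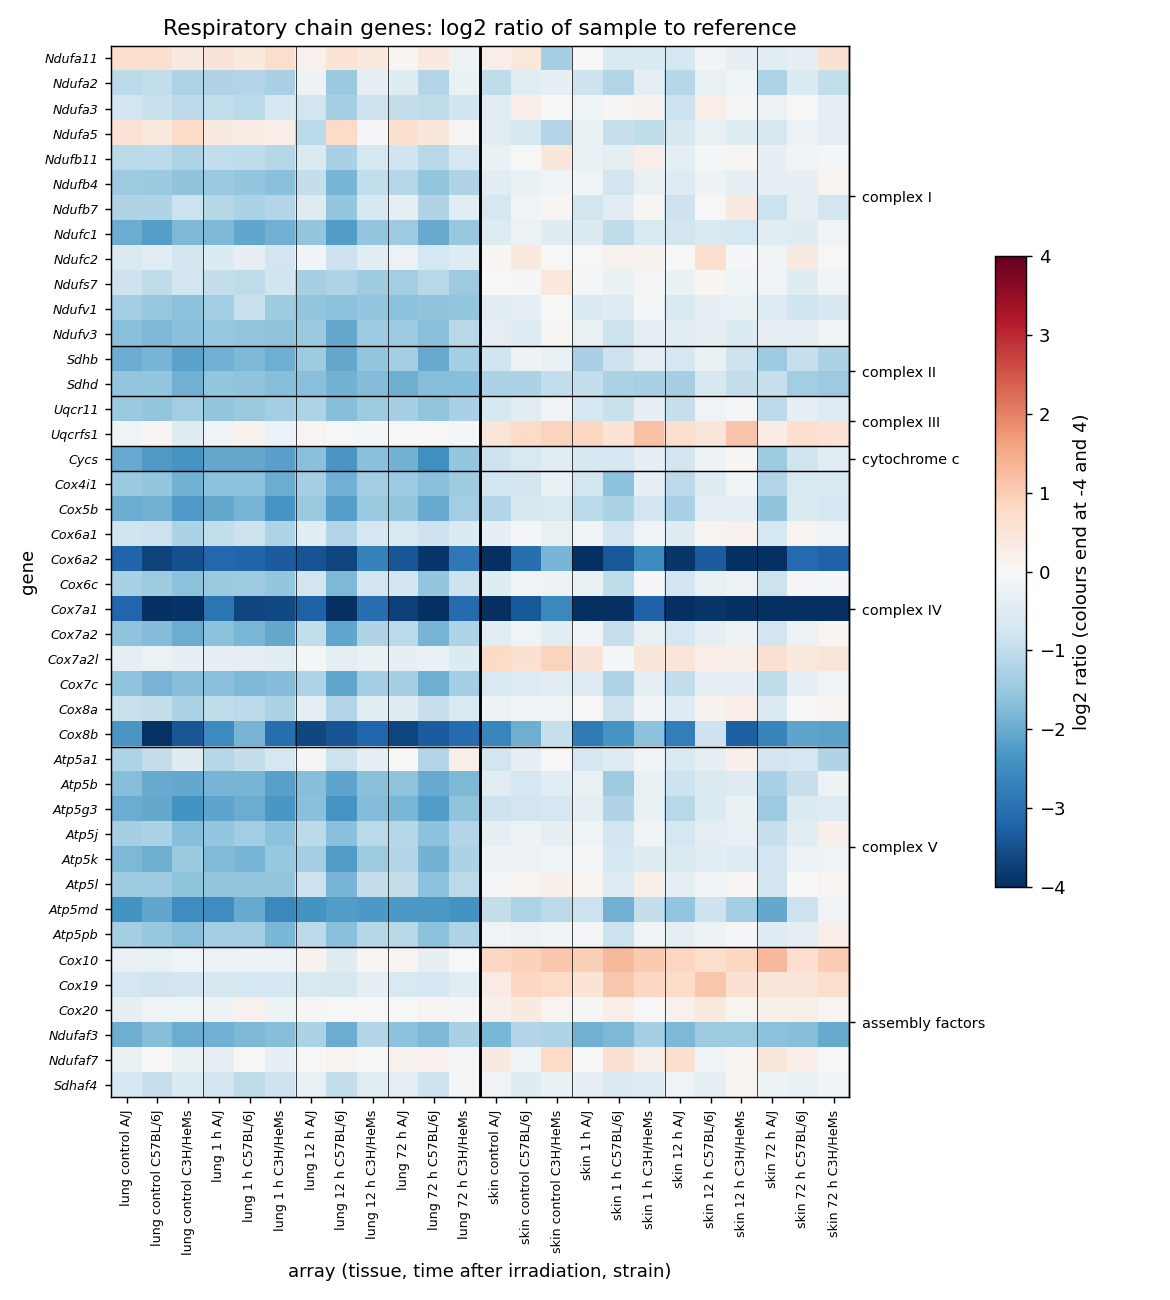
Log2 ratio of sample to reference for the 42 genes (rows, grouped by complex) on the 24 arrays (columns, lung left and skin right of the thick line). Blue is below the reference and red above it. The skin side is paler in most rows, and Cox6a2, Cox7a1 and Cox8b are the darkest rows in both tissues.

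Respiratory chain transcripts were higher in non-irradiated skin than in non-irradiated lung for most members of every complex. Of 42 genes, 34 were higher in skin (81%, against 35.6% of all features) and 1, Ndufa5, was lower (2.38%, against 22.5% of all features). Calls are adjusted p under 0.05 in limma over all features, fitted to all 24 arrays with group and strain, and values after ± are standard errors of that fit. The strain effect in it is shared by lung and skin, so strain differences unlike between the tissues stay in its error. Arrays of the same strain and tissue are treated as independent, and any likeness left between them could make its p-values too small. The median difference was 1.10 over the members and 0.24 over all features. All 3 skin controls lay above all 3 lung controls for 33 genes (37.7% of all features did), and all 12 skin arrays lay above all 12 lung arrays for 19 genes (18.8% of all features). In bulk tissue, fewer cells rich in mitochondria and less RNA per cell cannot be told apart.

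Centring and the choice of strains moved these counts. With quantile normalization within each tissue 28 members were higher and 2 lower, against 28.5% and 28.4% of all features, and the median of all features was 0.02. Without centring the counts were also 28 and 2, against 28.8% and 26.5% of all features. The members' median was 0.93 and 0.92. The second gene called lower under both was Ndufa11, and Cox20, Cox6a1, Cox8b, Ndufb7, Sdhaf4 and Sdhd were no longer called. Without C3H/HeMs the counts were 21 higher and 0 lower, with a members' median of 0.97. The shares of all features were lower too, at 26.9% and 16.7%. Besides complex IV subunits, Atp5md, Cox20, Ndufa3, Ndufb7, Ndufc2, Sdhaf4 and Sdhd were then no longer called higher. Without C57BL/6J the counts were 28 and 1, against 27.6% and 16.8% of all features. Cox20, Cox6a1, Cox8b, Ndufa3, Ndufb7, Sdhaf4 and Sdhd were lost there. Without A/J the counts were 32 and 1, against 32.2% and 20.9%, and Cox20 and Sdhaf4 were lost.

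In complex I, which oxidises NADH, 9 of 12 genes were higher in skin and 1 lower. Ndufc1, a small accessory subunit of the membrane arm, was at -1.97, -2.20 and -1.79 in control lung and -0.50, -0.23 and -0.48 in control skin. The groups did not overlap, and the difference of 1.58 ± 0.18 (adjusted p = 1.55e-06) was the largest among the 42 genes. Ndufv3, an accessory subunit of the NADH dehydrogenase module, was at -1.66, -1.79 and -1.67 in lung and -0.38, -0.52 and 0.06 in skin, a difference of 1.43 ± 0.17 (adjusted p = 2.72e-06). Its neighbour in that module, Ndufv1, carries the flavin that accepts electrons from NADH. It was at -1.40, -1.52 and -1.65 in lung and -0.41, -0.36 and -0.02 in skin, a difference of 1.26 ± 0.18 (adjusted p = 1.56e-05). For both genes the lowest skin control lay above the highest lung control. Ndufs7, an iron-sulfur subunit next to the ubiquinone site, differed by 0.98 ± 0.17 (adjusted p = 0.000100). The remaining 5 genes called higher are accessory subunits of the membrane arm: Ndufb4 (1.23 ± 0.21, adjusted p = 9.74e-05), Ndufb11 (1.19 ± 0.21, adjusted p = 0.000127), Ndufb7 (0.86 ± 0.30), Ndufa3 (0.82 ± 0.24) and Ndufc2 (0.74 ± 0.22).

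Ndufa5, an accessory subunit of the peripheral arm, ran the other way. It was at 0.57, 0.39 and 0.73 in control lung, above the reference in all strains, and at -0.45, -0.63 and -1.17 in control skin, below it in all strains. The difference was -1.31 ± 0.33 (adjusted p = 0.00254), and without C3H/HeMs it no longer passed. Ndufa11, an accessory subunit of the membrane arm, was at 0.66, 0.65 and 0.37 in lung and 0.27, 0.42 and -1.32 in skin. Only the C3H/HeMs skin pool was below the reference, and the difference did not pass (-0.77 ± 0.36, adjusted p = 0.0786). Ndufa2 also missed the threshold, at 0.50 ± 0.33 (adjusted p = 0.198).

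Complex II, which oxidises succinate and is part of the citric acid cycle, was represented by 2 genes, both higher in skin. Sdhb, its iron-sulfur subunit, was at -1.97, -1.87 and -2.14 in control lung and -0.79, -0.22 and -0.27 in control skin, a difference of 1.57 ± 0.26 (adjusted p = 6.88e-05). Sdhd, which anchors the complex in the membrane, differed by 0.51 ± 0.19 (adjusted p = 0.0328), and its 12 skin arrays all lay above its 12 lung arrays. Both genes of complex III were higher in skin. Uqcrfs1, the Rieske iron-sulfur protein that takes electrons from ubiquinol, was at -0.16, 0.07 and -0.50 in lung and 0.48, 0.76 and 0.90 in skin (0.91 ± 0.21). Uqcr11, a small subunit, differed by 1.09 ± 0.21 (adjusted p = 0.000296).

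Cytochrome c, the mobile carrier between complexes III and IV, was among the genes with the largest difference. Cycs, the somatic cytochrome c gene, was at -2.00, -2.26 and -2.37 in control lung and -0.84, -0.62 and -0.46 in control skin. The difference was 1.57 ± 0.25 (adjusted p = 4.77e-05), and all 12 skin arrays lay above all 12 lung arrays.

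In complex IV, 9 of 11 genes were higher in skin, and the 2 that were not called were the muscle isoforms Cox6a2 and Cox7a1. Cox7a2, the broad isoform of subunit 7a, was at -1.61, -1.75 and -1.99 in control lung and -0.43, -0.19 and -0.47 in control skin (1.42 ± 0.28). The groups did not overlap. Cox4i1, the broad isoform of the regulatory subunit 4, was at -1.48, -1.55 and -1.89 in lung and -0.75, -0.72 and -0.26 in skin (1.06 ± 0.28, adjusted p = 0.00386). The broad isoforms of subunits 8 and 6a differed less, Cox8a by 0.89 ± 0.26 (adjusted p = 0.00791) and Cox6a1 by 0.74 ± 0.25 (adjusted p = 0.0191). Cox7a2l, a relative of subunit 7a that helps assemble supercomplexes of complexes III and IV, was at -0.37, -0.22 and -0.32 in lung and 0.79, 0.62 and 0.88 in skin (1.07 ± 0.16). Cox5b, a zinc-binding subunit, differed by 1.24 ± 0.29, Cox6c by 1.19 ± 0.29 and Cox7c, the mean of 2 probes, by 1.21 ± 0.25. Without C3H/HeMs, Cox4i1, Cox5b, Cox6a1, Cox6c, Cox8a and Cox8b were not called.

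The muscle isoforms varied widely between skin pools. Cox6a2 was at -3.19, -3.70 and -3.52 in control lung and -4.20, -3.03 and -1.87 in control skin. Cox7a1 was at -3.18, -4.20 and -3.92 in lung and -4.05, -3.40 and -2.59 in skin. Their differences were 0.44 ± 0.51 (adjusted p = 0.475) and 0.42 ± 0.39 (adjusted p = 0.365), with the A/J skin pool below its lung pool for both. Cox8b was at -2.33, -3.94 and -3.43 in lung and -2.61, -1.94 and -0.91 in skin, and its difference of 1.41 ± 0.54 (adjusted p = 0.0321) was among those lost with other centring. It was also lost without C3H/HeMs (0.86) and without C57BL/6J (1.12), and leaving out 1 array or strain gave 0.86 to 2.26.

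Complex V had the largest median difference of the groups with more than 2 genes, 1.36 over 8 genes, of which 7 were higher in skin. Atp5l, subunit g of the membrane part, was at -1.42, -1.44 and -1.62 in control lung and -0.07, 0.11 and 0.21 in control skin (1.57 ± 0.26; adjusted p = 6.39e-05). Atp5k, subunit e, which takes part in pairing the enzyme into dimers, was at -1.81, -1.94 and -1.49 in lung and -0.20, -0.24 and -0.17 in skin (1.54 ± 0.23). Atp5b, the catalytic beta subunit, was at -1.70, -2.01 and -2.03 in lung and -0.42, -0.68 and -0.47 in skin (1.39 ± 0.27; adjusted p = 0.000283). All 3 had every skin control above every lung control. Atp5a1, the alpha subunit that pairs with beta, was at -1.22, -0.95 and -0.50 in lung and -0.74, -0.38 and -0.00 in skin and was not called (0.52 ± 0.30, adjusted p = 0.142). Atp5j, coupling factor 6, differed by 1.11 ± 0.25 (adjusted p = 0.00113), Atp5pb, the b subunit of the stalk, by 1.34 ± 0.23 (adjusted p = 0.000107) and Atp5md, a small membrane subunit, by 1.24 ± 0.36 (adjusted p = 0.00650). Atp5g3 encodes the same mature ring subunit as its copies Atp5g1 and Atp5g2, and whether its probe also measured them was not tested. Its difference was 1.40 ± 0.28.

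Of the assembly factors, which build the complexes without being part of them, 4 of 6 were higher in skin. Cox10, which makes the heme A precursor for complex IV, differed by 1.20 ± 0.18 (adjusted p = 2.56e-05), and Cox19, which takes part in copper delivery to it, by 1.40 ± 0.17 (adjusted p = 4e-06). Sdhaf4, which takes part in maturing the flavoprotein of complex II, differed by 0.43 ± 0.16. Cox20 passed at 0.42 ± 0.13, but its 2 probes disagreed. One had a mean of 0.15 in lung and -0.68 in skin, the other -0.29 in lung and 1.05 in skin. Ndufaf3 (0.45 ± 0.23, adjusted p = 0.0938) and Ndufaf7 (0.51 ± 0.24, adjusted p = 0.0792), factors for complex I, were not called.

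**Figure D2:**
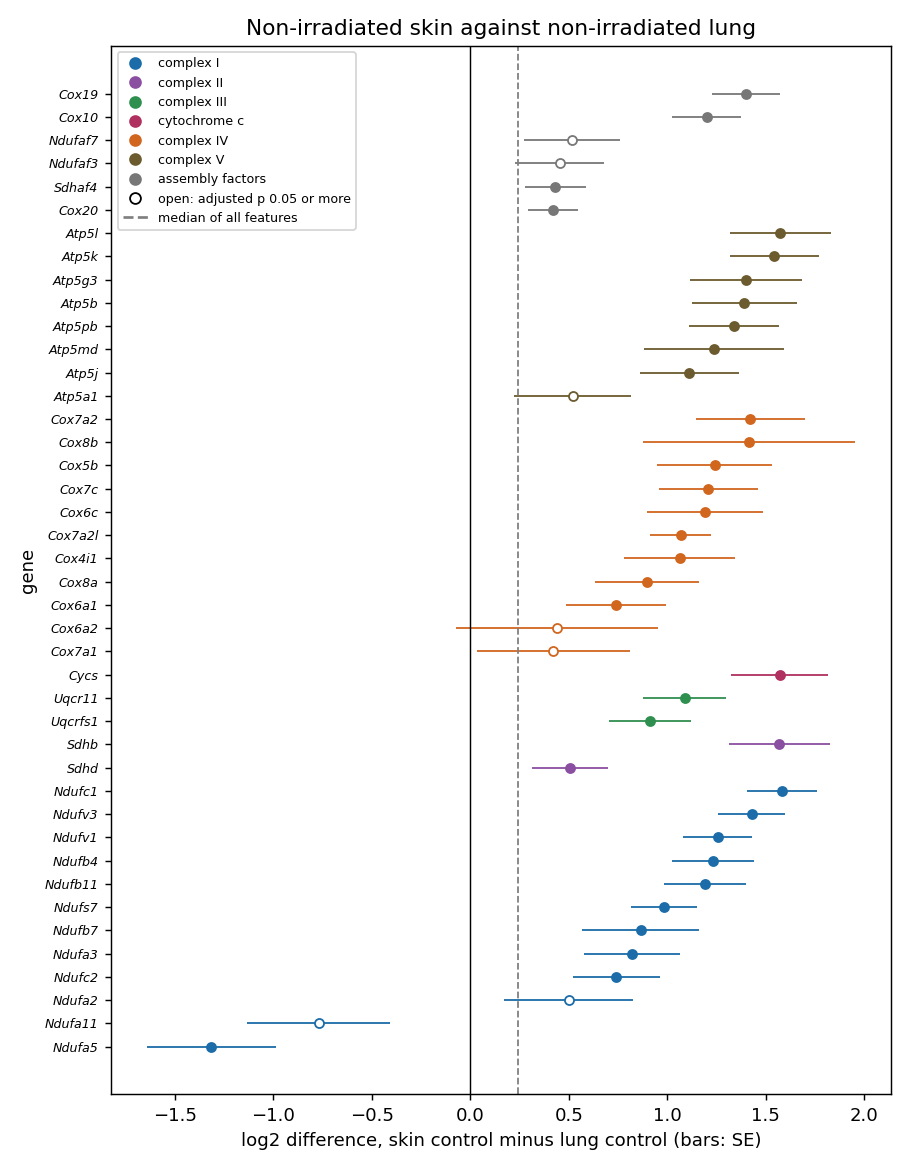
Log2 difference between control skin and control lung with its standard error for each of the 42 genes, grouped by complex. Filled points passed at an adjusted p under 0.05 and open points did not. Most points lie to the right of the median of all features (0.24, dashed), and Ndufa5 and Ndufa11 lie left of 0.

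Promoter sequences were examined for motifs of factors known to act on respiratory chain genes: nuclear respiratory factor 1 (GCGCANGCG), the estrogen-related receptors (TCAAGGTCA), ETS factors including GABP (CCGGAAG) and YY1 (AAGATGGCG). RefSeq windows on GRCm38.p6, from 250 bases before to 50 after the gene start, were found for 37 of the 42 genes and read on both strands. Cox4i1, Atp5a1, Cox6c, Cox6a2 and Ndufa2 had no entry. The nuclear respiratory factor 1 motif was in 11 of 37 (29.7%), against 7.03% of the 27025 genes with a window and 13.8% of those named on the array. The ETS motif was in 12 (32.4%, against 9.93% and 17%), YY1 in 4 (10.8%, against 1.64% and 3.16%) and the estrogen-related receptor motif in 2, Atp5g3 and Sdhd (5.41%, against 0.466% and 0.448%). In all, 20 of the 37 held at least 1 motif, and in 0 did matches of different motifs overlap. A match describes letters in the window and is not evidence of binding.

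The windows of the 4 genes with the largest difference between skin and lung are printed first, then those of a broad and a muscle isoform of the same complex IV subunit, Cox8a and Cox8b. Capitals mark matches, with positions counted from the gene start, at which the first base is 1. Ndufc1 (chr3:51408906-51409205 on the minus strand) holds the YY1 letters from position 23. Atp5l (chr9:44920693-44920992 on the minus strand) holds the nuclear respiratory factor 1 letters from -241 and ETS letters from -212 and 25, and Cycs (chr6:50566520-50566819 on the minus strand) the nuclear respiratory factor 1 letters from -61. Sdhb (chr4:140961021-140961320 on the plus strand) holds ETS letters from position 7. Cox8a (chr19:7217567-7217866 on the minus strand) holds ETS letters from -5 and 33, whereas Cox8b (chr7:140900397-140900696 on the minus strand) holds no match.
Ndufc1: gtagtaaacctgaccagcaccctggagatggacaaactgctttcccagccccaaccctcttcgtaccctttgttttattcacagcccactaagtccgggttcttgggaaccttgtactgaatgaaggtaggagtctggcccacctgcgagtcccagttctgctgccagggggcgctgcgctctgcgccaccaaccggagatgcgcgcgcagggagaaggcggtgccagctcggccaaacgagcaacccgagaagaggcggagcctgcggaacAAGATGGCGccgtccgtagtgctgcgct
Atp5l: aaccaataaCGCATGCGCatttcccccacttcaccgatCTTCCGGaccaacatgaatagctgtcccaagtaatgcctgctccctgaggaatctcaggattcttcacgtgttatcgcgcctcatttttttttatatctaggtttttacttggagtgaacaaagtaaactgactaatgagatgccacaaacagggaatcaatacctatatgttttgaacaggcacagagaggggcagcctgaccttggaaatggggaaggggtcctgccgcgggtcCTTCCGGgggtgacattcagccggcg
Cycs: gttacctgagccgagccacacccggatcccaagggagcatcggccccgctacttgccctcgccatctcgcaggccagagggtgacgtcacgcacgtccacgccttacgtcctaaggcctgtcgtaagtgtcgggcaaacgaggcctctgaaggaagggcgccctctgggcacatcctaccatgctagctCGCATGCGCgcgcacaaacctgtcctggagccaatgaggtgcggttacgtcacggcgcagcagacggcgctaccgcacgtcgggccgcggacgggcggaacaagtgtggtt
Sdhb: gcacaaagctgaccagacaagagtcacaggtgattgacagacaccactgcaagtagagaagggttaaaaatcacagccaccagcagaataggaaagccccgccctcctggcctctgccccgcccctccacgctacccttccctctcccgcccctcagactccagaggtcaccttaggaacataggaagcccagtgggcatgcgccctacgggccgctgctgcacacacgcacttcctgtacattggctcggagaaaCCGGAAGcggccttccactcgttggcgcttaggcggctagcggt
Cox8a: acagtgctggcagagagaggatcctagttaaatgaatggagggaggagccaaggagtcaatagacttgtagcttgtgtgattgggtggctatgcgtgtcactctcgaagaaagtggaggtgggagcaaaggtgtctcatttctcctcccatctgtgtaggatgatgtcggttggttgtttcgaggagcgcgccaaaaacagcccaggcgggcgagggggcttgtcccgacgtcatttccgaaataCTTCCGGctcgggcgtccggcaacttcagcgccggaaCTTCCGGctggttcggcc
Cox8b: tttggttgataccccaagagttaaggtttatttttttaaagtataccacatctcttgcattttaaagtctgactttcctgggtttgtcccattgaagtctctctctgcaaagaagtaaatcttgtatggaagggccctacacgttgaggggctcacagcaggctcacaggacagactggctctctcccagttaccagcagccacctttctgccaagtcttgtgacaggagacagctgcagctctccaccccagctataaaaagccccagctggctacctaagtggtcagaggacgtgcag

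Other mitochondrial gene lists were read against the 35.6% of all features higher and 22.5% lower in skin. The mitochondrial ribosome had 23 of 28 measured genes higher in skin and 0 lower (median 1.08), including Mrpl35 (1.76 ± 0.23, adjusted p = 7.97e-06). Of 8 carriers and energy transfer genes 6 were higher (median 1.44), led by Ckmt1, a mitochondrial creatine kinase (3.33 ± 0.24, adjusted p = 9.08e-09). Of 14 genes of the citric acid cycle and pyruvate dehydrogenase, 6 were higher and 1 lower (median 0.53), among the former Cs, citrate synthase (2.33 ± 0.26, adjusted p = 1.23e-06). Of 7 import genes 4 were higher and 1 lower, and of 16 further inner membrane and assembly genes, 2 of them members, 10 were higher. Of 9 regulators of mitochondrial biogenesis 5 were higher, among them Esrra (0.88 ± 0.17), an estrogen-related receptor, and Yy1 (1.16 ± 0.18). Of 7 glycolysis genes, which act in the cytosol, 5 were higher and 0 lower (median 1.10). Pgam2 and Eno3 are in this list and also among the skeletal muscle markers. Skeletal muscle markers were higher in skin for 11 of 17 measured and lower for 0 (median 2.21), and white fat markers for 5 of 5 (median 2.13). Their part in the difference was not tested.

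After thoracic irradiation no respiratory chain gene passed the test in lung. Of 42 members, 0 at 1 h, 0 at 12 h and 0 at 72 h were called at an adjusted p under 0.05 in limma, against 0.0114%, 0.114% and 0.114% of all features. At an unadjusted p under 0.05 the counts were 0, 1 and 3, against 2.24%, 12.1% and 12.4% of all features. Standard errors of single genes were 0.12 to 0.42, with a median of 0.18. The members' median change was -0.02 at 1 h, 0.19 at 12 h and 0.19 at 72 h, beside -0.01, 0.07 and 0.05 over all features. At 12 h 35 of 42 estimates were above 0, against 59.4% of all features, and at 72 h 33, against 57.5%. By complex the 72 h median was 0.15 in complex I, 0.15 in complex II, 0.13 in complex III, 0.17 in complex IV, 0.22 in complex V and 0.23 in the assembly factors.

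The direction of the lung medians differed between strains. At 1 h the members' median change from the strain's own control was -0.05, 0.04 and -0.02. At 12 h the median from the strain's own control was 0.31, -0.20 and 0.35, with 32, 8 and 39 of 42 genes higher, against 59.7%, 49.8% and 55.5% of all features. At 72 h it was 0.21, -0.09 and 0.41, with 34, 14 and 38 genes higher, against 58.9%, 49.7% and 53.5%. The A/J and C3H/HeMs arrays at these times are the 4 that stood apart, so strain and this set of arrays cannot be told apart. With the set as a block in the fit the medians were -0.18 at 12 h and -0.15 at 72 h. The mean level of both times then rests on C57BL/6J, so a shift toward its values is built into that fit. With the 4 arrays left out, which leaves 1 array of C57BL/6J at each time, they were -0.23 and -0.09. In both fits the later times rest on C57BL/6J, whose own medians were below 0, so neither can decide the sign of the median. With 1 array or strain left out it was 0.07 to 0.34 at 12 h and 0.09 to 0.32 at 72 h.

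For 18 of the 42 genes all 4 of these arrays were above their own control and both C57BL/6J arrays below it, as for 13.5% of all features. The opposite pattern was seen in 0 members and 6.96% of features. The 18 include Sdhb, Cycs, Uqcrfs1, Cox5b, Cox7c, Atp5l and Atp5g3, and so draw on complexes I to V. Cycs changed by 0.32, -0.05 and 0.70 at 12 h and 0.11, -0.19 and 0.81 at 72 h. Cox5b of complex IV changed by 0.48, -0.28 and 0.78 at 12 h and 0.38, -0.09 and 0.88 at 72 h. Both were highest in C3H/HeMs and lowest in C57BL/6J. A test of strain by irradiation over all times, added after seeing the data, called 0 members in lung (0.0229% of all features), and 0 at an unadjusted p under 0.05 (2.25%). That test sets the mean of all irradiated arrays, those of 1 h included, against the control. Marker lists of other cell types were set beside these arrays. The lung epithelium median over 5 genes went from 2.44, 2.41 and 0.98 in controls to 3.14, 2.13 and 2.82 at 12 h and 2.83, 2.46 and 2.39 at 72 h. The heart muscle median over 12 genes was -2.58, -3.34 and -3.02 in controls, -3.37, -3.12 and -2.55 at 12 h and -2.94, -3.14 and -2.17 at 72 h, so at 12 h and 72 h it was below control in A/J and above it in C57BL/6J and C3H/HeMs. Their part in the pattern was not tested.

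**Figure D3:**
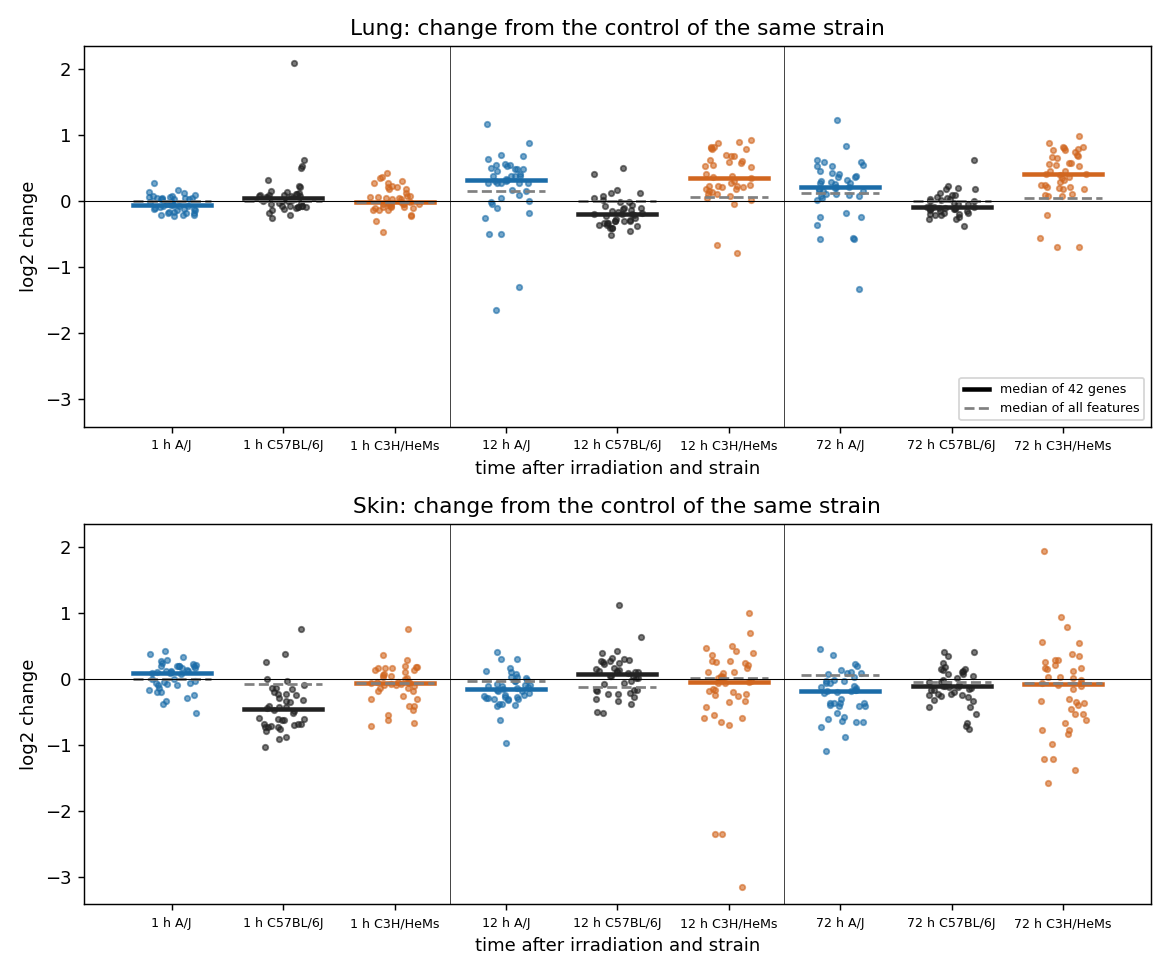
Log2 change of the 42 genes from the control of the same strain (points) on each irradiated array, lung above and skin below, coloured by strain (blue A/J, black C57BL/6J, orange C3H/HeMs). Thick lines are the members' medians and dashed lines the medians of all features. In lung at 12 h and 72 h the A/J and C3H/HeMs medians (0.21 to 0.41) lie above 0 and the C57BL/6J medians (-0.20 and -0.09) below it, and in skin at 1 h the C57BL/6J median is -0.46.

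Genes shifted the same way in all strains of irradiated lung were counted next. At 12 h, 4 members were higher in all 3 strains and 1 lower, against 16.8% and 10.7% of all features, and at 72 h 11 were higher and 2 lower, against 18.4% and 13.6%. At 1 h the counts were 8 and 7, against 14.6% and 14.9%. Ndufs7, an iron-sulfur subunit next to the ubiquinone site of complex I, was lower in all strains at both later times. It was at -0.81, -1.03 and -0.75 in control lung, -1.32, -1.22 and -1.42 at 12 h and -1.39, -1.12 and -1.45 at 72 h. The irradiated pools lay below all controls at both times. The differences of -0.46 ± 0.15 (adjusted p = 0.349) and -0.46 ± 0.15 (adjusted p = 0.349) did not pass in limma. C57BL/6J, the strain outside the 4 arrays that stood apart, had the smallest change at both times.

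The other genes with the smallest p in lung did not pass either. At 72 h Ndufa11 was lower in all strains, with changes of -0.58, -0.27 and -0.56 and a mean of -0.47 ± 0.18 (adjusted p = 0.358). Ndufc1 was higher in all strains, with changes of 0.53, 0.19 and 0.29 and a mean of 0.34 ± 0.14 (adjusted p = 0.381). At 12 h Cox8a had a mean change of 0.38 ± 0.20 and Ndufaf3 of 0.39 ± 0.21. Both turned to below 0 with the 4 arrays as a block, where the level of the later times rests on C57BL/6J. Ndufa5 was at -1.08, 0.81 and -0.05 at 12 h, against 0.57, 0.39 and 0.73 in controls. Its lower mean (-0.67 ± 0.38) came from A/J and C3H/HeMs and became 0.33 with the 4 arrays left out. At 1 h the smallest p belonged to Ndufv1 (0.30 ± 0.15, adjusted p = 1), followed by Cox8b, Cox7a1 and Cox20. Its changes were 0.04, 0.61 and 0.23, and without the C57BL/6J pool at 1 h its value was 0.12. The Cox8b estimate of 0.76 ± 0.42 rested on C57BL/6J, with changes of -0.22, 2.09 and 0.42. Ndufaf7, a methyltransferase of complex I assembly, followed at 72 h (0.26 ± 0.12).

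After irradiation of the hind leg no respiratory chain gene passed the test in skin either. At 1 h, 12 h and 72 h, 0, 0 and 0 of 42 members were called in limma, against 0%, 0% and 0% of all features. At an unadjusted p under 0.05 the counts were 1, 2 and 1, against 4.37%, 6.71% and 7.39% of all features. Standard errors were 0.17 to 0.56, with a median of 0.24. The members' median change was -0.17 at 1 h, -0.09 at 12 h and -0.11 at 72 h, beside -0.05, -0.03 and -0.01 over all features. By strain, the 1 h median was 0.09, -0.46 and -0.06, and 39 of 42 genes were below their own control in C57BL/6J, where 43.2% of all features were above it and the median of all features was -0.08. Without the C57BL/6J pool at 1 h the members' median was 0.05. At 12 h the strain medians were -0.16, 0.07 and -0.05, and at 72 h -0.18, -0.11 and -0.08. By complex the 72 h median was -0.10 in complex I, -0.43 in complex II, -0.22 in complex III, -0.14 in complex IV and -0.15 in complex V.

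Members lower in all 3 strains were 13 at 1 h, 7 at 12 h and 13 at 72 h, against 18.2%, 15.7% and 15.4% of all features. Members higher in all 3 were 1, 2 and 0, against 11%, 10.3% and 14.7%. Sdhb, the iron-sulfur subunit of complex II described above, had the smallest p of all members in skin. It was at -0.79, -0.22 and -0.27 in control skin, -1.30, -0.81 and -0.35 at 1 h, -0.72, -0.28 and -0.82 at 12 h and -1.45, -0.93 and -1.27 at 72 h. All 72 h values lay below all controls. The difference was -0.79 ± 0.23 (adjusted p = 0.650), with an unadjusted p of 0.00731, and did not pass. Its partner Sdhd changed by 0.36, -0.11 and -0.46, in no common direction.

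Cox7a2l, the supercomplex factor, was lower in all strains at each time. It was at 0.79, 0.62 and 0.88 in control skin, 0.50, -0.07 and 0.48 at 1 h, 0.50, 0.28 and 0.23 at 12 h and 0.62, 0.39 and 0.49 at 72 h. The irradiated pools lay below all controls at each time, at 72 h only narrowly (highest 0.616, against the lowest control at 0.618). The differences were -0.46 ± 0.19 (adjusted p = 1), -0.43 ± 0.19 (adjusted p = 0.734) and -0.26 ± 0.19, none of which passed. Cycs was higher in all strains at 12 h, by 0.10, 0.42 and 0.50, with a mean of 0.34 ± 0.21 (adjusted p = 0.830). At 72 h Ndufv1 changed by -0.11, -0.43 and -0.63 (mean -0.39 ± 0.20). Atp5a1 had a mean of -0.52 ± 0.26, most of it from C3H/HeMs. At 1 h Ndufc1 (-0.32 ± 0.21) and Ndufs7 (-0.26 ± 0.21) were the other genes with the smallest p, both lower in all strains. The Ndufc1 changes were -0.04, -0.78 and -0.14, and without C57BL/6J its value was -0.0868.

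**Figure D4:**
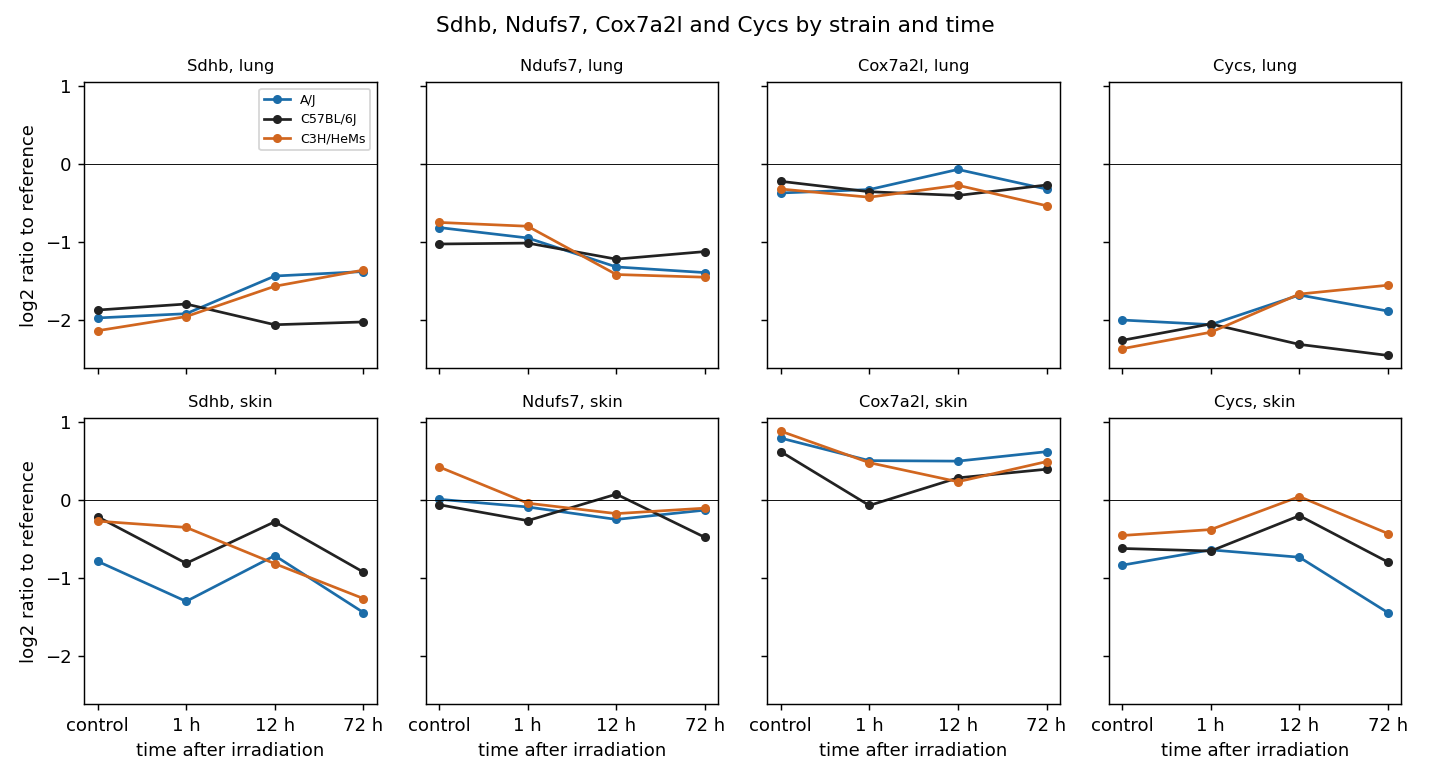
Log2 ratio to reference of Sdhb, Ndufs7, Cox7a2l and Cycs in lung (upper row) and skin (lower row), by time after irradiation, with 1 line per strain. Each point is 1 pool of 3 mice. Sdhb in skin is lowest at 72 h in all strains, while in lung it is higher in A/J and C3H/HeMs and lower in C57BL/6J at 12 h and 72 h than in control. Ndufs7 in lung is lower at 12 h and 72 h in all strains.

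The largest mean changes in skin were those of the muscle isoforms Cox6a2 and Cox7a1 of complex IV at 12 h, and most muscle markers differed between the same C3H/HeMs pools. The median of 17 measured skeletal muscle markers was -1.28, 0.05 and 1.19 in control skin, -1.50, 0.00 and 0.77 at 1 h, -0.90, -0.51 and -1.34 at 12 h and -1.14, -0.25 and -0.94 at 72 h. The C3H/HeMs pool was the highest of the 3 controls and the lowest of the 3 pools at 12 h. The lowest median of the 12 pools was that of A/J at 1 h. Taken singly, 16 of the 17 markers were highest in C3H/HeMs among controls, 11 were lowest in it at 12 h, and 16 were below its own control at 12 h, with changes from -4.04 to 0.94. In A/J 5 and in C57BL/6J 13 of the 17 were below their own control at 12 h. Mylpf, a fast myosin light chain, was at -1.45, 0.12 and 2.11 in control skin and 0.04, -0.20 and -1.81 at 12 h, whereas Actn3, an actinin of fast fibres, was at 3.85, 3.35 and 3.01 in control skin and 4.29, 3.50 and 3.95 at 12 h.

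Cox6a2, the muscle isoform of subunit 6a, was at -4.20, -3.03 and -1.87 in control skin, -4.53, -3.38 and -2.54 at 1 h, -3.90, -3.33 and -5.02 at 12 h and -4.23, -3.12 and -3.25 at 72 h. Cox7a1, that of subunit 7a, was at -4.05, -3.40 and -2.59 in control skin, -4.13, -4.08 and -3.22 at 1 h, -4.29, -3.90 and -4.95 at 12 h and -4.17, -4.06 and -4.17 at 72 h. For both genes the C3H/HeMs control was the highest of the 12 pools and the C3H/HeMs pool at 12 h the lowest. Cox8b, that of subunit 8, was at -2.61, -1.94 and -0.91 in control skin, -2.81, -2.36 and -1.63 at 1 h, -2.76, -0.82 and -3.26 at 12 h and -2.64, -2.10 and -2.13 at 72 h. Its highest pool was C57BL/6J at 12 h and its lowest C3H/HeMs at 12 h.

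The mean 12 h change of Cox7a1 was -1.03 ± 0.38 (adjusted p = 0.663) and that of Cox6a2 -1.05 ± 0.56 (adjusted p = 0.809), neither of which passed. Without C3H/HeMs the Cox6a2 value was 0.0014 and the Cox7a1 value -0.37. At 72 h the mean change of Cox7a1 was -0.79 ± 0.38 (adjusted p = 0.667), with changes of -0.12, -0.66 and -1.58, and without C3H/HeMs it was -0.39. The broad isoforms were higher, not lower, in the C3H/HeMs pool at 12 h than in its control. Cox6a1 was at -0.34, -0.06 and -0.29 in control skin and -0.47, 0.10 and 0.18 at 12 h, and Cox7a2 was at -0.43, -0.19 and -0.47 in control skin and -0.68, -0.36 and -0.20 at 12 h. Brown fat also uses Cox7a1 and Cox8b, and its uncoupling protein Ucp1 was at -1.21, -1.37 and -1.89 in control skin and -1.52, -0.64 and -1.14 at 12 h. Ppargc1a, another gene of the brown fat list, was at -1.68, -1.23 and -1.57 in control skin. At 12 h it was at -2.08, -1.54 and -1.64, lower in all strains, whereas Ucp1 was higher in C57BL/6J and C3H/HeMs. The part of muscle or fat content in these values was not tested.

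**Figure D5:**
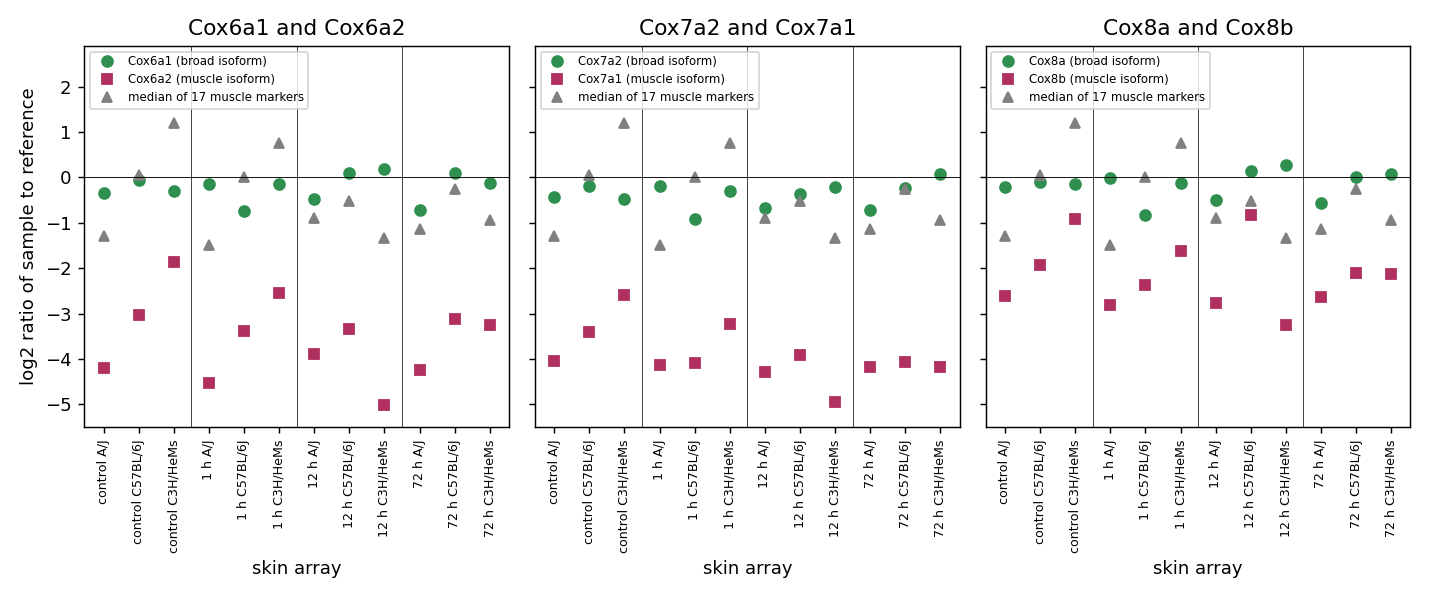
Log2 ratio to reference of the broad (green circles) and muscle (red squares) isoforms of complex IV subunits 6a, 7a and 8 on the 12 skin arrays, with the median of 17 skeletal muscle markers (grey triangles). The muscle isoforms of 6a and 7a are highest in the C3H/HeMs control pool (-1.87 and -2.59) and lowest in the C3H/HeMs pool at 12 h (-5.02 and -4.95), while the broad isoforms stay between -0.91 and 0.28.

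The responses of skin and lung were compared directly, although the tissues also differed in dose, site and dye, which cannot be told apart from the tissue here. The difference of the responses called 0, 0 and 0 of 42 members at 1 h, 12 h and 72 h, against 0%, 0% and 0% of all features. At an unadjusted p under 0.05 the counts were 0, 2 and 4, against 2.01%, 8.42% and 12.8% of all features. Sdhb stood first at 72 h, with lung changes of 0.59, -0.15 and 0.78 and skin changes of -0.66, -0.71 and -0.99. The skin response minus the lung response was -1.19 ± 0.31 (adjusted p = 0.367). Atp5a1 (-1.10 ± 0.41), Ndufb7 (-0.83 ± 0.31) and Ndufaf3 (-0.67 ± 0.31) followed at 72 h. At 12 h the smallest p belonged to Cox7a1 (-1.33 ± 0.50) and Cox7a2l (-0.48 ± 0.21), then Ndufc1 and Ndufa5. At 1 h Cox7a2l, Ndufv1, Cox7a1 and Cox8b came first, with estimates from -1.21 to -0.40. The lung side of each 12 h and 72 h value includes the 4 arrays that stood apart.

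Differences between the strains over the 4 arrays of each were tested within each tissue. The strain test called 0 members in lung (2.95% of all features) and 0 in skin (0.377%). At an unadjusted p under 0.05 it gave 6 members in lung (14.3%, against 23.7% of all features) and 6 in skin (14.3%, against 19.1%). Ndufc1 had the smallest p in lung, with strain means of -1.70, -2.12 and -1.70 (adjusted p = 0.101), and Atp5k also had C57BL/6J lowest, at -1.53, -1.99 and -1.43. The others in lung were Sdhaf4, Cox7a1, Cox7c and Ndufb7. The A/J and C3H/HeMs lung means include the 4 arrays that stood apart, so strain and this set are mixed in them. In control lung alone Ndufc1 was at -1.97, -2.20 and -1.79 and Atp5k at -1.81, -1.94 and -1.49. Ndufb7 was at -1.21, -1.22 and -0.87 there, against strain means of -0.81, -1.31 and -0.79. In skin Ndufb7, an accessory subunit of complex I, had the smallest p, with means of -0.77, -0.21 and -0.06 (adjusted p = 0.168). Cox5b in skin was at -1.29, -0.72 and -0.60 and Cycs at -0.92, -0.57 and -0.31, lowest in A/J for all 3 genes, and Uqcr11, Ndufa3 and Ndufb11 were the others. Without the C3H/HeMs pool at 12 h the skin strain test called 1 member. The strain by irradiation test in skin called 0 members (0% of all features) and gave 1 at an unadjusted p under 0.05, Ndufa11 (3.35% of all features).

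Of the other mitochondrial lists, none had a gene that passed after irradiation in either tissue. In lung at 72 h the median change was 0.17 for 28 mitochondrial ribosome genes, 0.17 for 7 import genes, 0.24 for 8 carriers, 0.14 for 16 assembly and inner membrane genes and 0.16 for 9 regulators. It was -0.0032 for 14 genes of the citric acid cycle and -0.0048 for 7 glycolysis genes, beside 0.19 for the respiratory chain. At 12 h the lung medians of these lists ran from 0.03 in glycolysis to 0.29 in the carriers. In skin at 72 h the medians were -0.19 for the mitochondrial ribosome, 0.0052 for import, -0.18 for the carriers, -0.14 for assembly and inner membrane and -0.09 for the regulators. They were -0.17 for the citric acid cycle and -0.43 for glycolysis, beside -0.11 for the respiratory chain. The glycolysis list includes the muscle markers Pgam2 and Eno3, whose part in its median was not tested. Times share their control arrays within a tissue, so these values are not independent of each other.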

How the data were processed

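RNA from lung and skin was hybridised against 1 mixed reference on 2-colour Agilent cDNA arrays, 24 in all and 3 per group. The deposited values are log10 ratios that the authors made with Agilent Feature Extraction, per the submitters' processing notes. Its version, background and dye steps and any filter are not given in the sources used here. The deposited log10 ratios end at ±2 and were multiplied by 3.32 to give log2 ratios. Lung values, whose sample dye was Cy3, were turned in sign, each array was centred on its median, and probes with the same single symbol were averaged. Of 9275 probes, 6433 carry 1 gene symbol in the platform annotation, 381 several and 2461 none, which gave 8750 features, 5908 of them named.

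limma 3.58.1 (R 4.3.3) fitted group and strain within each tissue (6 residual degrees of freedom), or all 24 arrays for comparisons of tissues, with Benjamini-Hochberg adjustment over all 8750 features. The strain is the replicate number and was part of the fit. Within a tissue, deviations of same-strain arrays from their group means correlated between -0.05 and 0.71. The fits were also run on simulated data with independent noise between arrays and no strain effect, which does not test the error of these data. Promoters and figures used Python 3.11.15 and matplotlib 3.10.9.

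Named genes were those passing a test (the 8 largest per direction), otherwise the 4 with the smallest p, plus complex IV isoform pairs and core subunits, and up to 3 genes from each other list. Other members are given by their estimates. The members, gene lists and rules were chosen with earlier results of these data known. The strain by irradiation test and the fit without 4 lung arrays were added after seeing the data. Alternatives changed centring, the strain block, the groups in the fit, saturated and zero values, the probe rule, the empirical Bayes settings, and left out each array and each strain.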

Additional observations from a re-analysis of the deposited data

Results flagged for a closer look

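In lung at 12 h and 72 h, 18 of the 42 genes were above their own control on all 4 arrays of A/J and C3H/HeMs and below it on both arrays of C57BL/6J. The same was seen for 13.5% of all features. The pattern stood out because all arrays of some strains moved one way and all of another strain the other way. The difference was not tested in this form. The strain by irradiation test over all times called 0 members in limma (0.0229% of all features), and 0 at an unadjusted p under 0.05 (2.25%). The same 4 arrays hold 115 to 674 probes at exactly 0, against 1 to 23 on the other 8 lung arrays, and their part in the pattern was not tested.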

How the results depend on the processing

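The counts of members called after irradiation, in the response comparison and in both interaction tests were 0 under every alternative run. In the skin and lung comparison 35 members were called in either direction (58.1% of all features), 30 with quantile normalization (56.9%) and 33 without the 4 lung arrays that stood apart (57.5%). With 1 array or strain left out 21 to 36 were called, and 43.6% to 59% of all features, both lowest without C3H/HeMs. The skin strain test called 0 to 1 members in that series. Without the replicate block, in which same-strain arrays are paired, 34 members were called between tissues (54.9% of all features) and 0 in every irradiation and response comparison.

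The median changes were less stable. In lung at 1 h the median was 0.0556 with quantile normalization and -0.115 to 0.111 with 1 array or strain left out. The lung medians at 12 h and 72 h were 0.223 and 0.235 with quantile normalization and 0.247 and 0.244 without centring. They were 0.161 and 0.171 with values at the limit and exact zeros left out. The leave-out fits gave 0.0706 to 0.341 at 12 h and 0.0865 to 0.319 at 72 h. The sign turned with the 4 arrays as a block, to -0.180 at 12 h and -0.153 at 72 h, and with them left out, to -0.226 and -0.0905. In both of these fits the later times rest on 1 strain. In skin the 72 h median was -0.193 with quantile normalization and -0.254 to -0.0844 in the leave-out fits, and the 12 h median was -0.163 to 0.0304. In lung at 12 h Cox8a turned to -0.0738 with the block and -0.21 without the arrays, Ndufaf3 to -0.0637 and -0.21, and Ndufa5 to 0.33 without them. Leaving out arrays or strains gave -0.17 to 1.16 for Cox6a2 and -0.0313 to 1.06 for Cox7a1 between tissues, and -1.73 to 0.0014 for Cox6a2 in skin at 12 h. These leave-out fits have fewer samples, and the cause of the other shifts was not tested. With values at the limit and exact zeros left out, 7803 features and 41 members remained.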
